A study of Mus musculus with 18 samples.

Results

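The genes described here are those of the WNT pathway that the deposited table lists by symbol: WNT ligands, their carrier, receptors, co-receptors and secreted inhibitors, the R-spondin branch, and the proteins that carry the signal inside the cell. Members were taken by symbol alone, whatever their values. The rule names 74 genes of the GENCODE M21 annotation, and 42 of them are among the 12012 genes of the table. RNA came from primary cultures of hippocampus from E18.5 mouse embryos on a C57BL/6J background, either *Fibcd1* WT or *Fibcd1* KO (fibcd1 -/-, the constitutive *Fibcd1tm1Lex* allele, which all cell types of the culture carry), and was sequenced after poly-A enrichment. Both groups compared here were plated on a coating of chondroitin sulphate proteoglycans (CSPGs), extracellular matrix proteins that carry sulphated sugar chains. All were plated in medium with fetal calf serum and harvested after a few days *in vitro*, and are called WT_CSPG and KO_CSPG below, with 4 libraries each (replicates A to D). The labels also list 5 WT and 4 KO libraries grown without CSPGs and a replicate E of WT_CSPG, which were not analysed here, so the response to the coating itself was not measured.

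WNT proteins are lipid-modified ligands that leave the cell with the help of the carrier Wls and bind Frizzled (FZD) receptors on the same or a neighbouring cell. With the co-receptors Lrp5 and Lrp6, FZD receptors act through Dishevelled (Dvl) proteins to stop the destruction of beta-catenin (*Ctnnb1*), which then joins TCF and LEF factors on target genes. Other branches act through Ror, Ryk, Vangl and Prickle proteins on cell polarity and axon growth. In the developing forebrain, WNT ligands from the cortical hem, the signalling centre beside the hippocampal primordium, are known to be needed for the hippocampus to form.

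Values are normalized counts, that is, reads scaled by a library's size factor. Reads over the genes of the table ranged from 10099564 to 11174615 in WT_CSPG and from 10541445 to 11647202 in KO_CSPG. The targeted gene *Fibcd1* had 54.3, 70.4, 60.1 and 182 normalized counts in WT_CSPG A to D and 0.970, 0.932, 7.16 and 4.74 in KO_CSPG A to D. The 4 Y-linked genes listed had summed values from 1557 to 1935 in WT_CSPG and from 878 to 1092 in KO_CSPG, and *Xist*, which silences one X chromosome in female cells, had 4596 ± 493 (SD, n = 4) and 7339 ± 828 (SD, n = 4). These sex-linked values moved with genotype, so that sex and genotype cannot be told apart in any difference given below. The labels call the cells neurons. All 18 neuron markers were in the table, and so were 16 of 18 markers of astrocytes and radial glia, among which *Gfap* had 19961 ± 1585 (SD, n = 4) normalized counts in WT_CSPG. Oligodendrocyte lineage markers (11 of 14 in the table) summed to between 1455 and 1888 in WT_CSPG and between 2115 and 2314 in KO_CSPG, with *Olig1* and *Olig2* called higher. Neuron markers summed to between 97590 and 103152 in WT_CSPG and between 96353 and 99036 in KO_CSPG, hippocampal neuron markers to between 25867 and 26807 and between 24486 and 27202, and choroid plexus and cortical hem markers (6 of 16 in the table) to between 475 and 4343 and between 499 and 897. The part of these cell types in the differences below was not tested beyond the fits named there. Summed markers of astrocytes and radial glia (57209 to 66373 against 63125 to 68381), fibroblasts and meninges (807 to 1263 against 732 to 1567, 7 of 14 in the table), endothelial and mural cells (556 to 632 against 599 to 713, 4 of 14), microglia (2267 to 2749 against 2461 to 2991, 8 of 12), Cajal-Retzius cells (3217 to 3841 against 3631 to 4225, 5 of 8) and proliferation (3410 to 3586 against 3424 to 3628, all 12) overlapped between the groups. Of the 16 markers of astrocytes and radial glia, 1 was called, beside 2.83% of all genes counted. It was *Nes*, lower in KO_CSPG, with 1273 ± 50.8 normalized counts in WT_CSPG and 1096 ± 25.3 in KO_CSPG (SD, n = 4 each, adjusted p = 0.00192, limma). The median log2 fold change of these 16 genes was 0.10, and 6 of them lay below 0. In bulk RNA, fewer cells of a type and less RNA per cell cannot be told apart.

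Few of the WNT ligands were listed. Of the 19 ligand genes, 3 had a row in the table: *Wnt7b*, *Wnt7a* and *Wnt5a*. Of the 10 FZD receptor genes 9 were listed, the exception being *Fzd10*. The cytoplasmic proteins (11 of 11) and the planar polarity proteins (4 of 4) were all listed. Of the secreted inhibitors 5 of 11 were listed, of the R-spondin branch 4 of 9 (1 of these 9 is an antisense RNA, Rspo4os), of the TCF and LEF factors 2 of 4, and of the co-receptors and other WNT receptors 3 of 5. Genes without a row include *Lef1*, *Tcf7*, *Lgr5*, *Rnf43*, *Dkk1*, *Ror1* and *Ror2*. The lowest mean value in the table was 40.7 normalized counts, and a gene without a row has no measured level here.

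Per kb of gene model, beta-catenin stood highest, with a mean of 1822 normalized counts per kb over the 8 libraries, followed by the kinase genes *Gsk3b* (529) and *Gsk3a* (372) and the scaffold gene *Apc* (425), which together mark beta-catenin for destruction. The lowest levels were those of the receptor *Fzd5* (6.72 per kb), the TCF factor *Tcf7l2* (8.16) and the feedback inhibitor *Nkd1* (10.1). Among the ligands the order was *Wnt7b* (107 per kb), *Wnt7a* (83.0) and *Wnt5a* (80.5), and the ranges of *Wnt7a* and *Wnt5a* overlapped. Among the receptors, *Fzd3* (147) and *Fzd1* (141) overlapped at the top, and *Fzd7* (98.8) and *Fzd9* (87.3), which also overlapped, came next. The atypical receptor *Ryk* had 224 per kb, above the co-receptors *Lrp6* (63.3) and *Lrp5* (28.4). Of the secreted inhibitors, *Dkk3* (246) and *Sfrp1* (202) were the high ones, with *Frzb* (26.7), *Sfrp2* (25.7) and *Wif1* far below them.

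**Figure D1:**
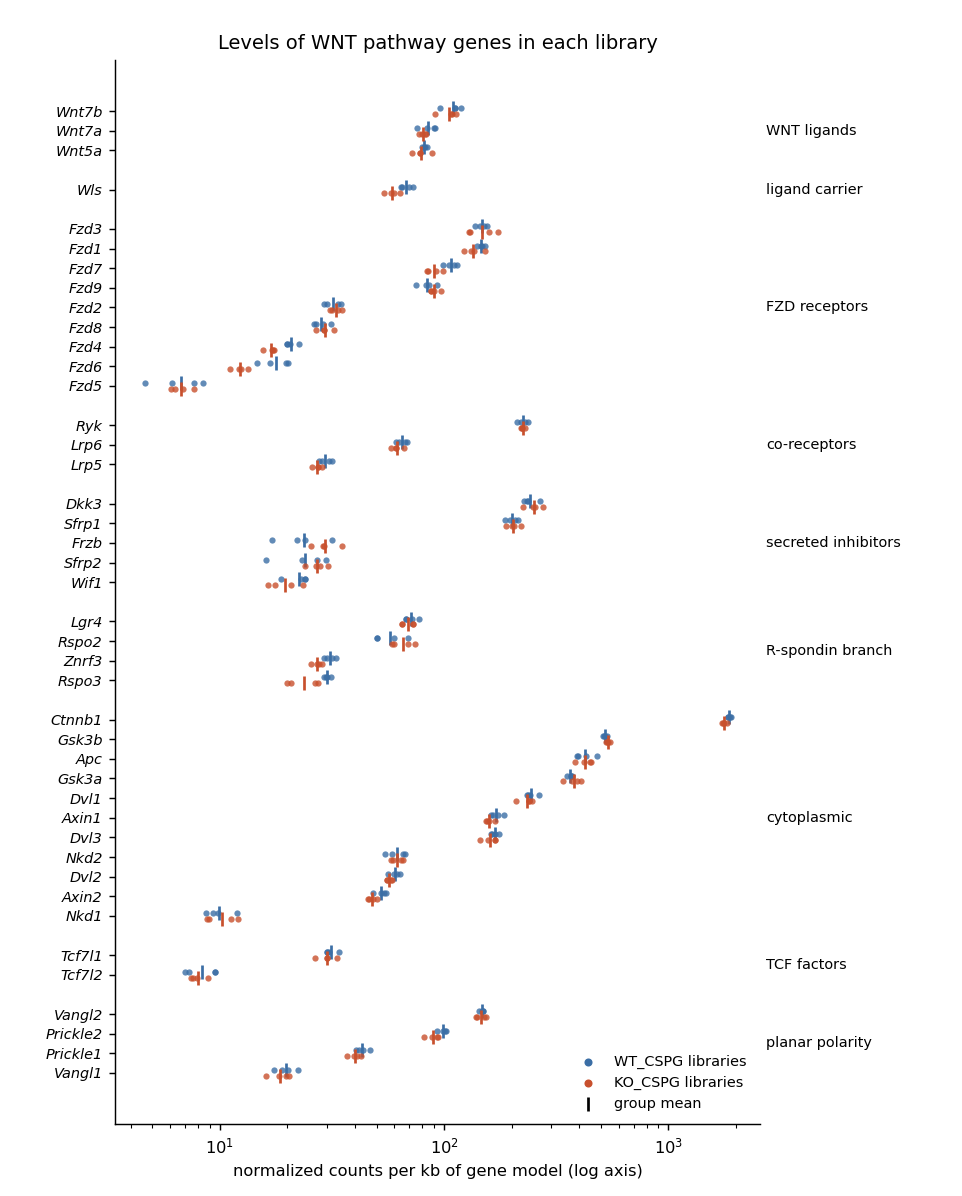
Level of each of the 42 genes in each library, in normalized counts per kb of gene model on a log axis, grouped by role; points are libraries (blue, WT_CSPG; orange, KO_CSPG) and vertical bars are group means. *Ctnnb1* lies to the right of all others, *Fzd5* has the lowest mean, and for most genes the points of both groups overlap.

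KO_CSPG cultures were compared with WT_CSPG cultures to ask whether any part of the pathway differs between genotypes on CSPGs. The paper found glial genes, such as *Pdgfra* and *Olig2*, among those differing most between KO and WT cultures without CSPGs. It proposes that the numbers of glia may differ, and for that reason it went on only with comparisons within a genotype. No fit here took the oligodendrocyte lineage markers as a covariate. Of the 42 genes, 3 were called lower in KO_CSPG at an adjusted p under 0.05 (limma with Benjamini-Hochberg adjustment over all 12012 genes): the receptors *Fzd7* and *Fzd6* and the carrier *Wls*. None was called higher, where 1 member (*Frzb*) had an unadjusted p under 0.05 in that direction. The 3 genes are 7.14% of the members. Among the 11553 genes counted (those on chromosomes X and Y and pseudogenes left out), 2.83% were called, 1.77% lower and 1.06% higher. Under upper-quartile scaling, which gave a split of 171 higher and 169 lower genes in place of 122 and 205, *Fzd7* and *Fzd6* were called and *Wls* was not (adjusted p = 0.0547, limma). The median log2 fold change was -0.06 (-0.0611) over the members and 0.00 (-0.000231) over all genes counted, and 28 members lay below 0 and 14 above it.

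The number of members called depended on single libraries. It was 0 without KO_CSPG A (9 members at an unadjusted p under 0.05), without KO_CSPG C (8) or without WT_CSPG B (9). It was 1 without KO_CSPG B (*Wls*), without KO_CSPG D (*Fzd7*) or without WT_CSPG C (*Wls*), 2 without WT_CSPG A (*Fzd7* and *Fzd6*) and 4 without WT_CSPG D, where *Frzb* was called higher. When the sum of the 4 Y-linked genes entered the fit, of which genotype explained 91.2%, no member was called (limma, 8 at an unadjusted p under 0.05, adjusted p of 0.929 for *Fzd7*, 0.663 for *Fzd6* and 0.704 for *Wls*). The log2 fold change in that fit was nearer to no change for *Fzd7* (-0.15, from -0.25 as reported). It was larger in size for *Fzd6* (-1.075, from -0.52) and *Wls* (-0.41, from -0.21).

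**Figure D2:**
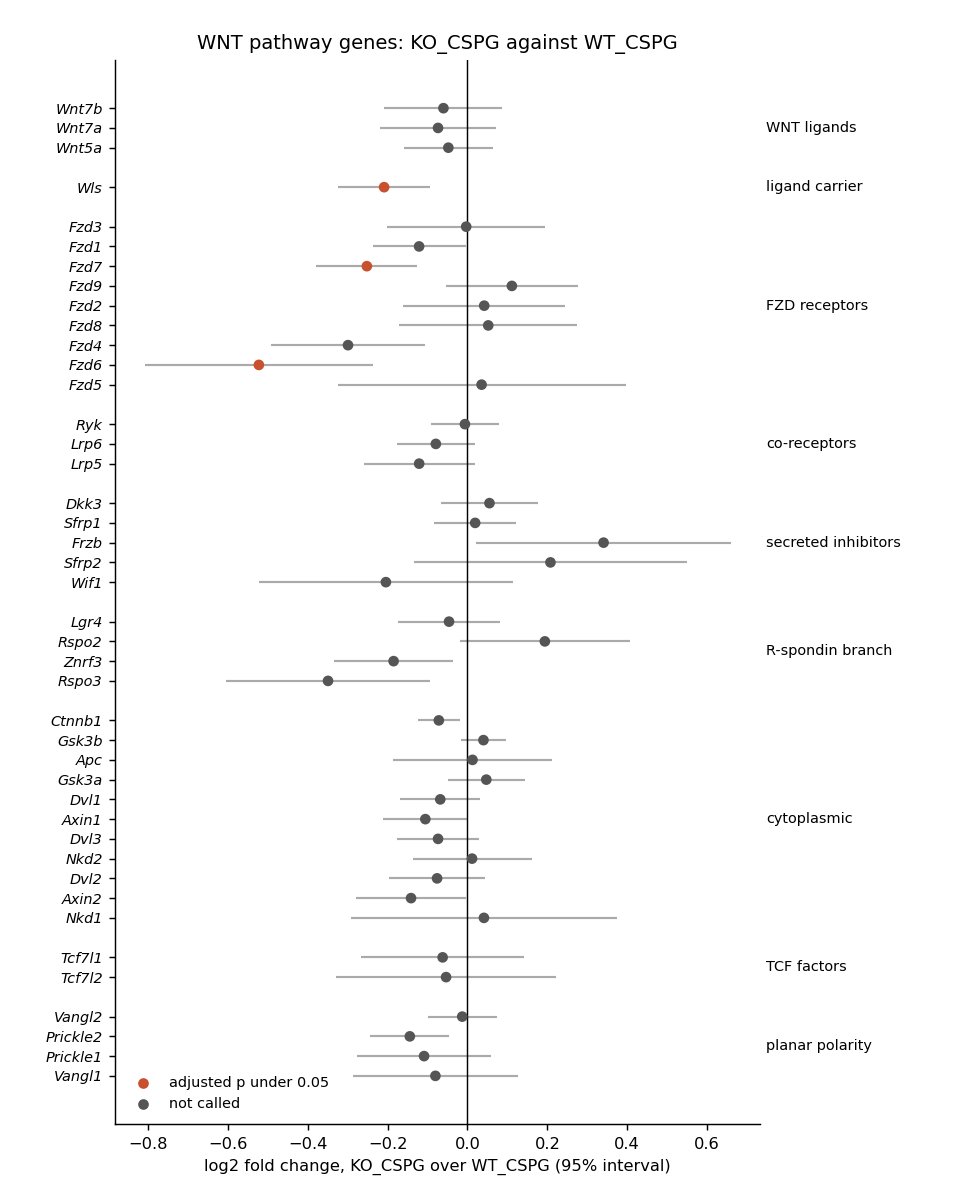
Log2 fold change of KO_CSPG over WT_CSPG for the 42 genes by role, from limma, with 95% intervals; orange points have an adjusted p under 0.05. *Wls*, *Fzd7* and *Fzd6* are the called genes and lie left of 0, and *Frzb* is furthest to the right with an interval from 0.02 to 0.66.

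The ligands themselves differed little. *Wnt7b*, a ligand known to promote dendrite growth in hippocampal neurons, had 484 ± 42.5 (SD, n = 4) normalized counts in WT_CSPG and 464 ± 43.0 (SD, n = 4) in KO_CSPG, being 424, 525, 493 and 492 in WT_CSPG A to D and 480, 474, 402 and 501 in KO_CSPG A to D. *Wnt7a*, which is known to act on axon branching and synapse assembly, had 270 ± 21.8 (SD, n = 4) and 256 ± 8.50 (SD, n = 4). *Wnt5a*, the main ligand of the branches that do not need beta-catenin, had 640 ± 13.3 (SD, n = 4) and 620 ± 53.7 (SD, n = 4). The groups overlapped for all 3 ligands. Their log2 fold changes were -0.06, -0.07 and -0.05, and the 95% intervals kept each within a fold of 0.859 to 1.06 of WT_CSPG.

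*Wls*, the membrane protein that carries WNT ligands to the cell surface, was lower in KO_CSPG. Its gene (ENSMUSG00000028173) lies on the plus strand of chromosome 3 of GRCm38, from 159839672 to 159938664. WT_CSPG A to D held 639, 616, 564 and 571 normalized counts, and KO_CSPG A to D held 525, 559, 510 and 475. Every KO_CSPG library lay below every WT_CSPG library, although KO_CSPG B was close to WT_CSPG C. The log2 fold change was -0.21 (standard error 0.06, adjusted p = 0.0410 from limma), a fold of 0.865 with a 95% interval from 0.799 to 0.938. Without 1 library it ranged from -0.25 to -0.17. The adjusted p from limma ranged from 0.0210 to 0.704 over 20 alternative fits, 10 of which called it.

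The 2 receptors called were both lower. *Fzd7*, a receptor known from stem and progenitor cells, is encoded on the plus strand of chromosome 1 from 59482424 to 59486955 (GRCm38). It had 479, 519, 501 and 447 normalized counts in WT_CSPG A to D and 418, 386, 382 and 448 in KO_CSPG A to D. KO_CSPG D reached the lowest WT_CSPG library, D, and the other 3 KO_CSPG libraries lay below all 4 of WT_CSPG. The log2 fold change was -0.25 (standard error 0.06, adjusted p = 0.0225 from limma), a fold of 0.840 (95% interval from 0.769 to 0.917). Over 20 alternative fits 13 called it, and its adjusted p from limma was 0.00604 without WT_CSPG D and 0.0952 without KO_CSPG C.

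*Fzd6*, a receptor known for its part in the planar polarity of hair follicles and the inner ear, gave the largest decrease among the 42 genes. Its gene spans 39006280 to 39038186 on the plus strand of chromosome 15 (GRCm38), and 3.15% of its exon bases are shared with the gene Gm26704. WT_CSPG A to D held 60.6, 81.2, 83.4 and 69.3 normalized counts and KO_CSPG A to D held 50.4, 55.0, 46.0 and 51.2, which rest on 58, 75, 86 and 68 reads and on 52, 59, 45 and 54 reads. The groups did not overlap, but the gap between the lowest WT_CSPG and the highest KO_CSPG library was small against the range within WT_CSPG. The log2 fold change was -0.52 (standard error 0.14, adjusted p = 0.0379 from limma), a fold of 0.696 (95% interval from 0.571 to 0.849). It could not be tested with a mean value of at least 100, and 11 of the 19 other fits called it.

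The remaining receptors were not called. *Fzd4*, the receptor for Norrin in blood vessels, had 134, 139, 152 and 133 normalized counts in WT_CSPG A to D and 114, 117, 116 and 105 in KO_CSPG A to D. These values did not overlap, and the log2 fold change was -0.30 (standard error 0.09, adjusted p = 0.0862 from limma). *Fzd3*, known for its part in the growth of forebrain axon tracts and the highest receptor per kb, had 579, 656, 614 and 636 normalized counts in WT_CSPG and 668, 732, 545 and 552 in KO_CSPG, so that its KO_CSPG libraries lay on both sides of the WT_CSPG range. *Fzd1* had a log2 fold change of -0.12 (adjusted p = 0.287, limma), *Fzd9* 0.11, *Fzd8* 0.05, *Fzd2* 0.04, *Fzd5* 0.04 (0.0354) and *Fzd3* 0.00 (-0.00313). Summed over the 9 receptors, the libraries ranged from 2304 to 2491 normalized counts in WT_CSPG and from 2066 to 2393 in KO_CSPG, and overlapped. For *Fzd5*, 17.8% of the exon bases are shared with another annotated gene, as are 16.1% for the inhibitor *Sfrp2* and 19.7% for *Dvl2*, so part of their reads may not be their own.

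**Figure D3:**
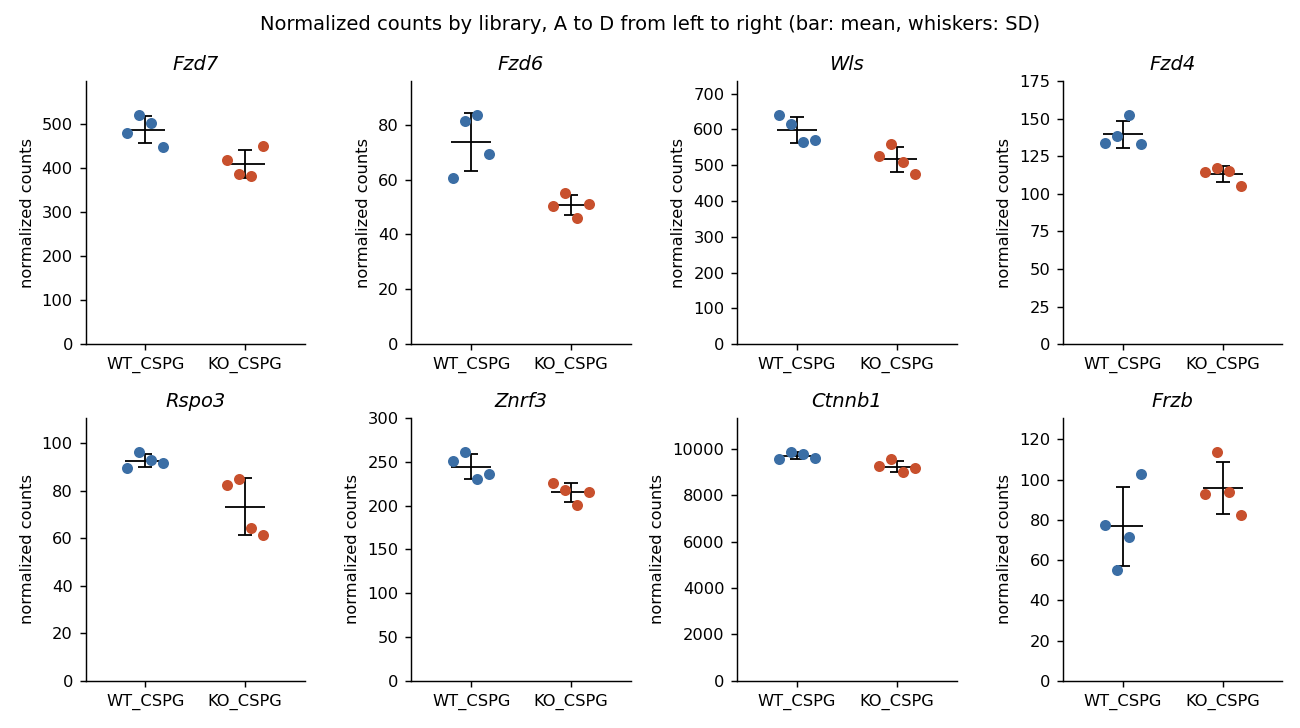
Normalized counts of 8 genes in each library, A to D from left to right, with the group mean (bar) and SD (whiskers); each vertical axis starts at 0. The groups are apart for *Fzd6*, *Wls*, *Fzd4*, *Rspo3*, *Znrf3* and *Ctnnb1*, overlap for *Fzd7* through replicate D of each group, and overlap for *Frzb*.

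In all, 6 of the 42 genes (14.3%) had every KO_CSPG library below every WT_CSPG library, and 0 had the reverse (limma: 1 with positive log2 fold change at an unadjusted p under 0.05, 0 called). Over all genes counted these shares were 5.2% and 4.04%. The 6 were *Fzd6*, *Wls*, *Fzd4*, *Rspo3*, *Znrf3* and *Ctnnb1*, of which the last 4 were not called. Of the 42, 12 had an unadjusted p under 0.05 (11 lower, 1 higher), which is 28.6%, against 16.2% of all genes counted.

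Co-receptors and other receptors were at similar levels in both groups. *Lrp6*, the co-receptor that is phosphorylated when a ligand binds, had 889 ± 45.1 (SD, n = 4) normalized counts in WT_CSPG and 841 ± 45.7 (SD, n = 4) in KO_CSPG. *Lrp5* had 288 ± 17.6 and 265 ± 11.2 (SD, n = 4 each). *Ryk*, a WNT receptor on growing axons, had 1073, 1003, 1042 and 963 normalized counts in WT_CSPG A to D and 1013, 1012, 1037 and 998 in KO_CSPG A to D, with every KO_CSPG value inside the WT_CSPG range. Its log2 fold change was -0.01 (-0.00628) with a 95% interval from -0.09 to 0.08. For *Lrp6* the log2 fold change was -0.08 (adjusted p = 0.434, limma) and for *Lrp5* -0.12 (adjusted p = 0.392, limma).

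Secreted inhibitors, which bind WNT ligands or co-receptors outside the cell, were the role in which most genes (4 of 5) had a positive log2 fold change, although none was called. *Frzb*, a secreted protein with an FZD-like domain, had 77.3, 55.2, 71.8 and 103 normalized counts in WT_CSPG A to D and 93.1, 114, 94.1 and 82.5 in KO_CSPG A to D. WT_CSPG D was above 3 of the 4 KO_CSPG libraries, and the other WT_CSPG libraries lay below all of KO_CSPG. The log2 fold change of *Frzb* was 0.34 (standard error 0.15, adjusted p = 0.269 from limma), and without WT_CSPG D it was 0.49 (adjusted p = 0.0389, limma). WT_CSPG D is also the library with the most *Ttr*, a choroid plexus gene, at 3529 normalized counts against 11.6 to 953 in the other WT_CSPG libraries and 5.11 to 243 in KO_CSPG; its part in the values of *Frzb* was not tested.

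*Dkk3*, a divergent member of the Dickkopf family and the highest inhibitor per kb, had 784, 900, 765 and 794 normalized counts in WT_CSPG A to D and 923, 854, 757 and 837 in KO_CSPG A to D. The groups overlapped and its log2 fold change was 0.06 (0.0551; 95% interval from -0.07 to 0.18). *Sfrp1*, a secreted FZD-related protein of forebrain progenitors, had 878 ± 51.6 and 890 ± 55.9 normalized counts (SD, n = 4 each), with a log2 fold change of 0.02. *Sfrp2*, at 51.8 ± 12.8 and 58.7 ± 5.77 normalized counts (SD, n = 4 each), had 0.21 (adjusted p = 0.595, limma). *Wif1*, which binds ligands directly, was the exception to the positive values, with 54.6 ± 6.15 and 47.4 ± 7.70 normalized counts (SD, n = 4 each) and a log2 fold change of -0.20 (adjusted p = 0.569, limma).

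R-spondins are secreted proteins that strengthen WNT signalling by holding back *Znrf3*, a ubiquitin ligase that removes FZD receptors from the surface. The values of the 2 R-spondins in the table went in opposite directions. *Rspo3* had 89.9, 96.4, 93.1 and 91.7 normalized counts in WT_CSPG A to D and 82.4, 84.9, 64.4 and 61.6 in KO_CSPG A to D. The WT_CSPG libraries lay close together and all KO_CSPG libraries lay below them, A and B by less than C and D. The log2 fold change was -0.35 (standard error 0.12), and it was not called (adjusted p = 0.135 from limma, 0.0913 to 0.739 over 19 alternative fits). *Rspo2* had 167, 230, 167 and 200 normalized counts in WT_CSPG and 247, 195, 199 and 228 in KO_CSPG, which overlap (log2 fold change 0.19, adjusted p = 0.368, limma). Some of the *Rspo3* reads may not be its own, since 13.1% of its exon bases are shared with another annotated gene.

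*Znrf3* had 251, 261, 230 and 236 normalized counts in WT_CSPG A to D and 226, 218, 200 and 215 in KO_CSPG A to D. Its highest KO_CSPG library lay just below its lowest WT_CSPG library, and the log2 fold change was -0.18 (standard error 0.07, adjusted p = 0.185 from limma). *Lgr4*, the R-spondin receptor with the highest level of this branch per kb, had 397, 425, 397 and 457 normalized counts in WT_CSPG A to D and 430, 428, 382 and 382 in KO_CSPG A to D. Its groups overlapped, with a log2 fold change of -0.05 (95% interval from -0.17 to 0.08).

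Inside the cell, none of the 11 genes was called, and 3 had an unadjusted p under 0.05, all of them with lower values in KO_CSPG. *Ctnnb1*, which encodes beta-catenin, had 9561, 9850, 9783 and 9592 normalized counts in WT_CSPG A to D and 9237, 9533, 8998 and 9144 in KO_CSPG A to D. The groups did not overlap, and KO_CSPG B was close to the lowest WT_CSPG library. The log2 fold change was -0.07 (standard error 0.03, adjusted p = 0.142 from limma), so that the 95% interval of the fold, from 0.917 to 0.987, allows a decrease of only a small part of the level. *Ctnnb1* shares 15.1% of its exon bases with other annotated genes.

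*Axin2*, a scaffold of the destruction complex that beta-catenin itself switches on and that is often read as a gauge of the pathway, had 298, 265, 305 and 289 normalized counts in WT_CSPG A to D and 251, 255, 276 and 265 in KO_CSPG A to D. KO_CSPG C and D reached into the WT_CSPG range, which ends at the value of B. Its log2 fold change was -0.14 (standard error 0.07, adjusted p = 0.299 from limma). The 95% interval of its fold ran from 0.824 to 0.998. *Axin1*, the scaffold that is not a target, had 656 ± 38.6 and 609 ± 27.5 normalized counts (SD, n = 4 each) and a log2 fold change of -0.11 (adjusted p = 0.308, limma). The kinase genes *Gsk3b* and *Gsk3a* had log2 fold changes of 0.04 and 0.05, and *Apc* had 0.01, with WT_CSPG libraries from 6152 to 7550 normalized counts and KO_CSPG libraries from 6053 to 7140. For *Gsk3a*, 28.3% of the exon bases are shared with another annotated gene.

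The 3 Dishevelled genes, which pass the signal on from FZD receptors, had log2 fold changes of -0.07 (*Dvl1*), -0.08 (*Dvl2*) and -0.07 (*Dvl3*), with adjusted p-values from limma of 0.535, 0.578 and 0.510. *Dvl1*, the highest of them per kb, had 1222 ± 67.5 and 1166 ± 79.4 normalized counts (SD, n = 4 each). The feedback inhibitors *Nkd1* and *Nkd2*, which bind Dishevelled, had log2 fold changes of 0.04 and 0.01. The interval of *Nkd1*, from -0.29 to 0.37, was wide because it had between 39 and 54 reads per library.

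The TCF factors in the table, *Tcf7l1* and *Tcf7l2*, bind DNA with beta-catenin. *Tcf7l1*, which mostly acts as a repressor, had 118, 118, 134 and 120 normalized counts in WT_CSPG A to D and 131, 117, 118 and 104 in KO_CSPG A to D. *Tcf7l2* had 63.7, 83.4, 61.1 and 83.6 in WT_CSPG and 77.6, 65.3, 69.5 and 66.4 in KO_CSPG. Both overlapped between the groups, with log2 fold changes of -0.06 and -0.05 and upper ends of the 95% interval at 0.14 and 0.22.

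All 4 planar polarity genes had negative log2 fold changes, and none was called. *Vangl2*, a membrane protein at the core of this branch and the highest of them per kb, had 1041, 1041, 1003 and 1033 normalized counts in WT_CSPG A to D and 980, 1056, 972 and 1076 in KO_CSPG A to D, on both sides of the WT_CSPG values. *Prickle2*, a cytoplasmic partner of Vangl proteins that is also found at synapses, had 869, 806, 877 and 850 against 706, 804, 760 and 811, where only KO_CSPG D lay above the lowest WT_CSPG library. Its log2 fold change was -0.14 (standard error 0.05, adjusted p = 0.109 from limma). *Prickle1* had -0.11, *Vangl1* -0.08 and *Vangl2* -0.01.

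Of the 39 genes that were not called, the 95% intervals from limma lay within 1.5-fold in either direction for 37. The 2 with a wider interval were *Frzb* (fold from 1.02 to 1.58) and *Rspo3* (fold from 0.658 to 0.937). Reads per library for the 42 genes went down to 32 (*Sfrp2*), and a larger change at such levels was not detectable with the same precision as for *Ctnnb1*, with 8802 to 10224 reads.

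**Figure D4:**
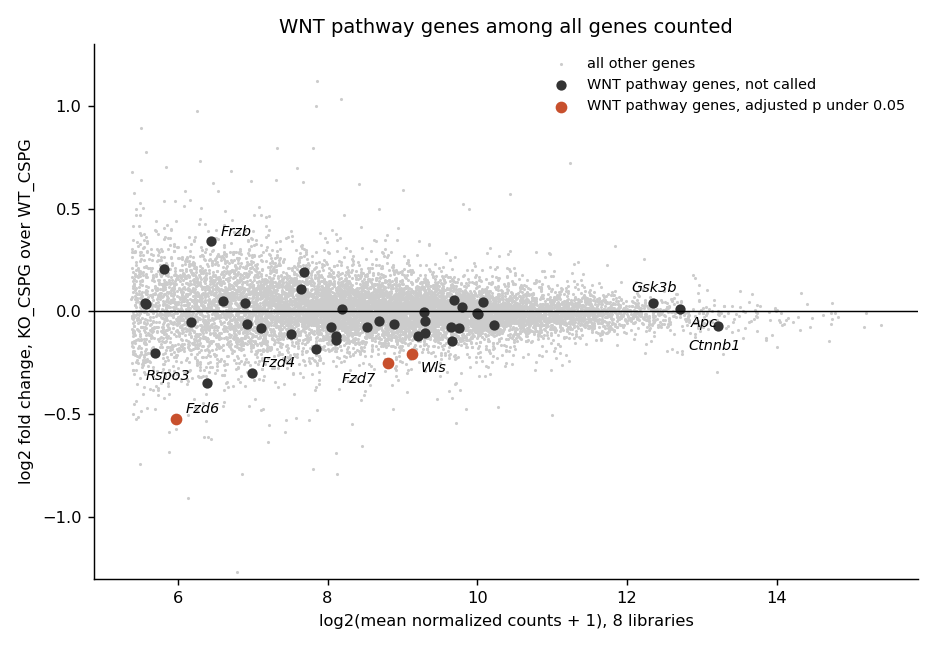
Log2 fold change of KO_CSPG over WT_CSPG against log2(mean normalized counts + 1) over the 8 libraries for the genes counted (grey) and the 42 WNT pathway genes (black, not called; orange, adjusted p under 0.05); genes beyond 1.3 either way are left out. The members lie within the cloud of all genes, with *Fzd6* near its lower edge at low counts and *Ctnnb1* at the right with a log2 fold change of -0.07.

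Other genes of the pathway, from a list chosen by function, had few calls too. Of 88 symbols, some of them older names of the same gene, 76 were in the table, and 3 were called, all lower: *Celsr1*, *Ccdc88c* and *Tnks*. This is 3 of 76, beside the 2.83% of all genes, and the median log2 fold change was -0.01. *Celsr1*, a large cadherin that works with FZD and Vangl proteins in planar polarity, had 831, 979, 948 and 863 normalized counts in WT_CSPG A to D and 740, 842, 739 and 770 in KO_CSPG A to D, overlapping through WT_CSPG A and KO_CSPG B. The log2 fold change was -0.23 (standard error 0.05, adjusted p = 0.0203 from limma), while its relatives *Celsr2* and *Celsr3* had -0.04 and -0.08 (adjusted p = 0.816 and 0.286, limma). *Ccdc88c*, which encodes the Dishevelled-binding protein Daple, had 858, 969, 892 and 864 normalized counts in WT_CSPG A to D and 733, 795, 748 and 813 in KO_CSPG A to D, with no overlap (log2 fold change -0.21, adjusted p = 0.0118 from limma). *Tnks*, tankyrase, an enzyme that marks Axin for breakdown, had 4551 ± 163 and 4148 ± 190 (SD, n = 4 each; log2 fold change -0.13, adjusted p = 0.0271 from limma). Without KO_CSPG A, KO_CSPG C or WT_CSPG B none of the list was called (limma, 9, 7 and 8 at an unadjusted p under 0.05), and without KO_CSPG D or WT_CSPG C 1 was.

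Genes that beta-catenin is known to switch on in other tissues were listed as well. Of 55 symbols, 28 were in the table, 4 of them members given above. Of these 28, 1 was called, beside 2.83% of all genes counted (1.77% lower and 1.06% higher). The called gene, *Prox1*, was higher: 1970, 1728, 1685 and 1786 normalized counts in WT_CSPG A to D and 2184, 2353, 2210 and 1989 in KO_CSPG A to D (log2 fold change 0.29, standard error 0.05, adjusted p = 0.00918 from limma). *Prox1* is also the defining transcription factor of dentate granule neurons. It is on the hippocampal neuron list too, of which 2 genes were called higher (*Prox1* and *Mef2c*) and 4 lower (*Fibcd1*, *Lhx2*, *Fezf2* and *Neurod2*). The median of the target list was -0.03. *Ccnd1*, which drives cells into the cycle, had 219 ± 8.09 and 218 ± 21.3 normalized counts (SD, n = 4 each) with a log2 fold change of -0.01 (-0.00854), and *Myc* had 452 ± 23.0 and 419 ± 13.2 (SD, n = 4 each; log2 fold change -0.11, adjusted p = 0.350, limma).

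Promoter sequences from RefSeq (GRCm38.p6, 250 bases before to 50 after each start) were at hand for 26 of the 42 genes, in 32 windows. Windows were searched on both strands for the TCF/LEF core CTTTGWW, where W is A or T. The core was in 4 of the 32 windows (12.5%), those of *Fzd7*, *Gsk3a*, *Prickle2* and *Tcf7l2*, and in 16.9% (16.88%) of all 32851 windows of the table. The windows of the members were rich in G and C, with a median of 66.3% against 52.7% over all windows. Shown here are the 2 called genes with a window and *Axin2*, the target often used to gauge the pathway, on the plus strand from 5′ to 3′, with the core in capitals. *Fzd7* holds 1 core, on the opposite strand, whose first base shown is 130 bases before the start, and the other windows hold none. RefSeq's start of *Fzd7* lies upstream of the gene start in the deposited table.
Fzd7, chr1:59481897-59482196: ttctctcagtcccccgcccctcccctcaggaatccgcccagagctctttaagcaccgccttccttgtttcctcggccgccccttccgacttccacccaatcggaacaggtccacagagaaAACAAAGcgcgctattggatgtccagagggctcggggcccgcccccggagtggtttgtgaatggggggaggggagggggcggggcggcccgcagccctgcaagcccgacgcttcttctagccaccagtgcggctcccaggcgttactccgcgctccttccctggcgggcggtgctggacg
Wls, chr3:159839400-159839699: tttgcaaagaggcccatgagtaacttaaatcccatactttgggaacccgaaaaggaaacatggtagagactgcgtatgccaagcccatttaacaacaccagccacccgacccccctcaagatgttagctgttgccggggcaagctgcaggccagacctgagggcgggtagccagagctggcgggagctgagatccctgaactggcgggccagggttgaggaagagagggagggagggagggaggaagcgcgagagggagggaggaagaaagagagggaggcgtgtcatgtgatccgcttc
Axin2, chr11:108920099-108920398: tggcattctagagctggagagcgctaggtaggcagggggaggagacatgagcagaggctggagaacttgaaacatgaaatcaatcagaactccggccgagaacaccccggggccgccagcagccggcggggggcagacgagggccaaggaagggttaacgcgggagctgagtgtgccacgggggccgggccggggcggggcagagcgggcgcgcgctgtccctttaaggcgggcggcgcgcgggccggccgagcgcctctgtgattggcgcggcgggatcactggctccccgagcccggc

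The calls of *Fzd7*, *Fzd6* and *Wls* depended on how the variance was modelled. With no trend of the prior variance with the mean, their adjusted p-values from limma were 0.149, 0.0818 and 0.188. With TMM scaling or with the summed proliferation markers as a covariate all 3 were called, and with the summed markers of astrocytes and radial glia *Fzd7* and *Fzd6* were called. The direction was the same in every alternative fit in which each could be tested.

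**Figure D5:**
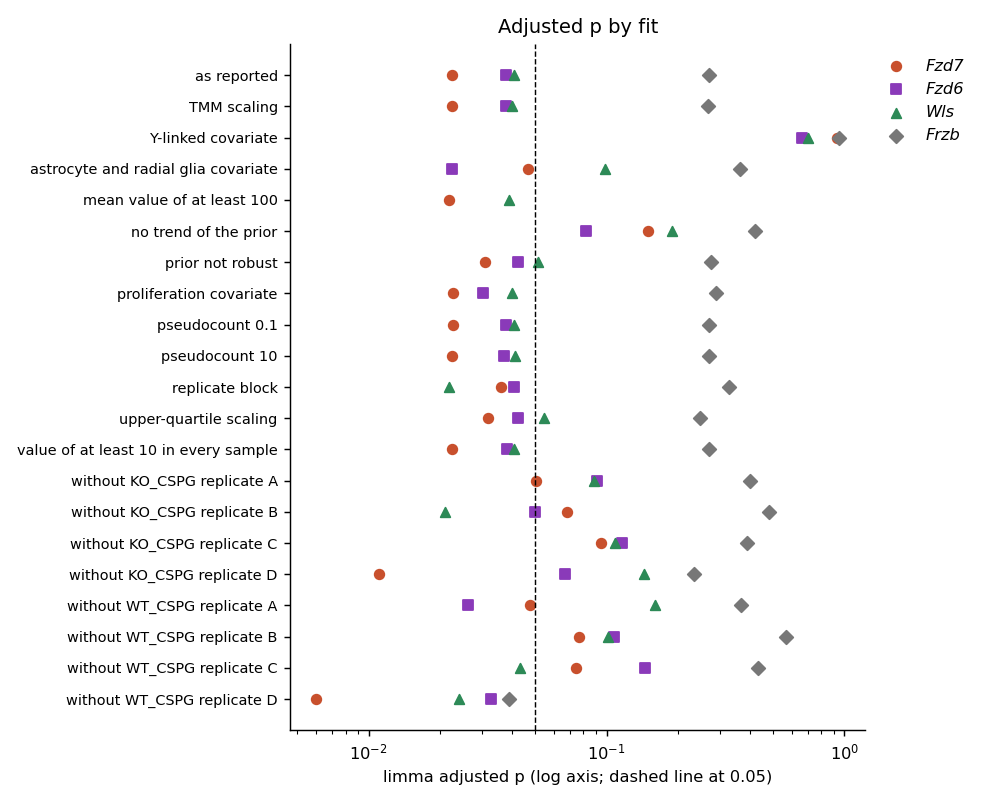
Adjusted p from limma (log axis, dashed line at 0.05) for *Fzd7*, *Fzd6*, *Wls* and *Frzb* as reported and in each alternative fit; *Fzd6* and *Frzb* have no value with a mean of at least 100. The Y-linked covariate moves all 4 to 0.663 or more, and *Frzb* is left of the line only without WT_CSPG replicate D.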

How the data were processed

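Poly-A RNA libraries (NEBNext Ultra kit) from hippocampal cultures were read by the authors in single 50-base reads. Per the labels, mm10 and DESeq2 were used; the aligner and counter are not given in the sources used here. Although the columns are named counts, the authors deposited a normalized signal, reads scaled by library size factors, for 12012 genes; every value was a whole multiple of 1 step to within 5.46e-11 of a read. The table further holds a gene length in bases, the mean and, from the authors' DESeq2 comparison of these groups, log2 fold changes, scores (standard error and Wald statistic) and p-values, which the authors deposited and which were not used. Columns of 8 of the 18 labelled samples were mapped by name, and 0 were left unused.

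Values were transformed to log2(value + 1), which understates changes of low genes, and entered in limma 3.58.1 under R 4.3.3 (trend and robust), with Benjamini-Hochberg adjustment over all 12012 genes. The fit was tested on simulated data. Genes with an adjusted p under 0.05 were called; the 459 genes on chromosomes X and Y or annotated as pseudogenes were tested but not counted, after the study's methods. Count models had been listed as alternatives and were not run, because the values are normalized and genes with low values are missing. Starts count from 1. Exon overlaps and 50-base windows were checked against GENCODE M21, since the kit is not stated to mark strand. Every member is accounted for by role; called members and the highest member of each role per kb are given by library, and further members were given by library after their values were seen. Of the other lists, called genes are named; further genes named from them were chosen after their values were seen. Members and lists were chosen with earlier results of these data known. The study counts each replicate as a separate preparation of cells; which litter a preparation came from is not given in the sources used here, and p-values measure the spread between these preparations.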

Additional observations from a re-analysis of the deposited data

Results flagged for a closer look

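Each gene was examined for a library far from the other 3 of its group, 84 groups of 4 in all, and 1 had one, where about 1 in 20 (4.2) are what chance gives. This was *Tcf7l1* in WT_CSPG C, with 133.8 normalized counts against 118.0 to 120.3 in the other WT_CSPG libraries. KO_CSPG libraries had between 104 and 131. *Tcf7l1* was not called in any fit.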

How the results depend on the processing

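Of 327 genes called, 1 was left with the Y-linked covariate and 73 with no trend of the prior variance, and without 1 library the number ranged from 177 (without KO_CSPG A) to 550 (without WT_CSPG D). Members called were 3 as reported, 0 with the Y-linked covariate and 0 with no trend (limma, 8 at an unadjusted p under 0.05 in each), and 0 to 4 without 1 library. Of the other pathway genes, 3 were called as reported, 0 with the Y-linked covariate, 0 with no trend (6 unadjusted in each) and 0 to 4 without 1 library. Of the target genes, 1 was called as reported, 0 with the Y-linked covariate (3 unadjusted), 0 with no trend (5 unadjusted), 2 with the astrocyte and radial glia covariate (*Prox1*, and *Cd44* lower) and 1 without any 1 library. The causes were not tested, beyond genotype explaining 91.2% of the Y-linked covariate. For single members, 805 of 831 values kept their side of the threshold, 25 lost the call and 1 gained it; none of those called changed direction, and 43 values changed sign between fits that did not call them.

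Whether WT_CSPG and KO_CSPG libraries with 1 letter are paired is not given in the sources used here. Their deviations from the group means had r of -0.07, 0.10, 0.27 and -0.01 across genes for A to D. A correlation over all genes cannot decide on a pairing, and the fit as reported took the groups as unpaired. With the replicate block 404 genes were called, and the members called were the same 3. edgeR and DESeq2 were not run because the values are normalized and genes with low values are missing. Upper-quartile scaling moved the median log2 fold change of all genes to 0.0124. Low counts limit what can be said of *Fzd6*, *Fzd5*, *Nkd1*, *Sfrp2* and *Wif1*, and no statement covers the 32 genes without a row.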

Other observations

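Several genes of hippocampal neuron identity differed between the groups beside the WNT genes. Of 15 markers listed, all in the table, 2 were called higher in KO_CSPG and 4 lower, 1 of the latter being the targeted gene *Fibcd1*. Over all genes counted, 1.06% were called higher and 1.77% lower. *Prox1* and *Mef2c* had log2 fold changes of 0.29 and 0.28 (adjusted p = 0.00918 and 0.0187, limma). *Neurod2*, a transcription factor of excitatory neurons, had -0.21 (adjusted p = 7.99e-04, limma), *Fezf2*, a regulator of deep-layer projection neurons, had -0.42 (adjusted p = 0.00649, limma) and *Lhx2* had -0.18 (adjusted p = 0.00649, limma). *Lhx2* is known for holding back the cortical hem fate in the medial forebrain. Of the cortical hem and choroid plexus list, 6 of 16 genes were in the table, 2 of them the R-spondins given above, and none was called. The hem and choroid plexus factor *Lmx1a* had 46.0, 50.9, 53.3 and 53.0 normalized counts in WT_CSPG A to D and 40.7, 46.6, 26.6 and 30.3 in KO_CSPG A to D (log2 fold change -0.51, adjusted p = 0.119, limma). In KO_CSPG, A and B were higher than C and D for *Lmx1a* as for *Rspo3*; a relation between these genes was not tested.

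Members differed in how much they varied between cultures of 1 group. In WT_CSPG the coefficient of variation was 25.7% for *Frzb*, 25.2% for *Fzd5* and 24.7% for *Sfrp2*, and 1.47% for *Ctnnb1* and 1.58% for *Gsk3b*. In KO_CSPG it was 16.4% for *Rspo3* and 2.97% in WT_CSPG for the same gene, and *Ryk* had 1.57% in KO_CSPG and 4.68% in WT_CSPG. The genes with the widest spread are among those with the fewest reads.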
